A study of Homo sapiens with 30 samples.

Results

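The genes described here are 9 members of the NRF2 antioxidant pathway, read from the count table by gene symbol: NFE2L2, KEAP1, BACH1, SLC7A11, GCLC, GCLM, TXNRD1, NQO1 and HMOX1. They are 9 of the 60664 rows of the table, each symbol matched 1 row, and all 9 passed the low-count filter in every fit. The libraries came from a pair of lines derived from Flp-In T-REx HEK293, a human embryonic kidney line in which an inserted gene is placed under the control of tetracycline. Each line carries GFP fused to the RNA-binding protein TIA1a, in the wild-type form (WT) or with the mutation of Welander distal myopathy, a late-onset muscle disease (WDM). In each line, cytosol was sequenced from untreated cells, from cells given tetracycline and from cells given tetracycline and then 0.5 mM sodium arsenite over 60 min, and a granule fraction was sequenced from the last 2 treatments. That fraction was pelleted from the lysate at high speed and pulled down through the GFP tag, and stress granules are the assemblies of RNA and protein that TIA1 joins when translation is blocked. The 10 groups have 3 libraries each. Every cell carries a transgene on top of its own TIA1, each form is present as 1 derived line, so the mutation and the history of the line cannot be told apart, and the arsenite groups also received tetracycline. Nothing in the labels says whether replicates were separate cultures, so p-values measure the spread between these libraries only.

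NRF2, the protein of NFE2L2, is a transcription factor that KEAP1 holds in the cytoplasm and passes to a ubiquitin ligase for destruction. Arsenite and other reagents that react with thiols modify cysteines of KEAP1, so that NRF2 builds up, enters the nucleus and, with a small MAF partner, binds antioxidant response elements in the promoters of its targets. BACH1 is a repressor that occupies the same elements, at HMOX1 above all, until haem binds it. The targets supply cystine and glutathione (SLC7A11, GCLC, GCLM), reduce thioredoxin (TXNRD1) and quinones (NQO1), and break down haem (HMOX1).

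The antioxidant response element is the sequence through which these genes are thought of as a group, so stretches that hold its core are printed here, except a further match in the first TXNRD1 window, which runs across the start. The core searched was TGACNNNGC on either strand, in the 250 bases before to 50 bases after each RefSeq start on GRCh38.p14. A window was found for 7 of the 9 genes, with none for HMOX1 and SLC7A11, and the core lay in windows of 3 of those 7 genes (42.9%), against 4384 of 27305 genes with a window (16.1%). By window it was 4 of 12 (33.3%) against 4687 of 35116 (13.3%). Each line below gives 29 bases, 5′ to 3′ on the strand of the gene, with the match in capitals, and the match on the reverse strand reads GCNNNGTCA.
GCLM, chr1:93909446-93909474, minus strand, match from base -34 of the start: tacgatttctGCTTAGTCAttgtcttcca
TXNRD1, chr12:104215670-104215698, plus strand, match from base -99 of the first start: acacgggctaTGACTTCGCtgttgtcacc
TXNRD1, chr12:104286920-104286948, plus strand, match from base -102 of a start further along the gene: gtggatttctGCTTTGTCAttctgactct
KEAP1, chr19:10502807-10502835, minus strand, match from base -54: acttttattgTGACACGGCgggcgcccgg
KEAP1, chr19:10502784-10502812, minus strand, match from base -31: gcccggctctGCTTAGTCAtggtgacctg
Both KEAP1 matches belong to a start further along the gene, and the window of its first start held 0. Elements more than 250 bases before a start were not searched, so a window without a match does not show that the gene lacks the element. A match is a description of these letters and no measure of binding, and these libraries hold no binding data.

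Values in the text are CPM, read counts scaled by library size with TMM factors over all 30 libraries, given for replicates 1, 2 and 3 in that order. Fold changes come from edgeR's quasi-likelihood F-test, as log2 with its standard error (SE), and a gene is called at a Benjamini-Hochberg adjusted p under 0.05 over all genes tested. Total counts ran from 7971585 to 18884843 in cytosol and from 5906167 to 27419145 in the granule fraction. The rarest member, NQO1, had 58 to 178 counts in a cytosol library and 12 to 63 in a granule library, and TXNRD1, the most counted, had 1440 to 9055 in all. The row of TIA1 reached at most 0.0751 CPM in any library, under the limit that a count of 0 allows (3 counts), so induction of the transgene could not be read from the table, and 99.9% of the TIA1 gene lies in the span of another gene on its strand. Of the epithelial markers, KRT8 was at 89.8 to 193 CPM in cytosol and KRT18 at 81.6 to 174 CPM. EPCAM was at 68.8 to 145 CPM there, and CDH1 was low, at 3.57 to 10.8 CPM. Of the kidney markers CDH2 was at 168 to 238 CPM, PAX2 at 0.97 to 8.36 CPM and LHX1 at 0.794 to 2.67 CPM there. The blood markers PTPRC, CD3E and LYZ stayed at or under 0.353 CPM. In cytosol the fibroblast marker COL1A1 was at 1.15 to 5.39 CPM and DCN at or under 0.518 CPM. The endothelial markers PECAM1 and CDH5 stayed at or under 0.387 CPM there.

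How reads were assigned bears on every member. Of 491 protein-coding genes lying inside the span of another protein-coding gene on the same strand, 483 (98.4%) had 0 counts in the table, against 65 of 597 (10.9%) lying inside a gene of the opposite strand and 844 of 13216 (6.39%) that overlap none. The genes nested on the same strand inside NFE2L2 (5), KEAP1 (1), BACH1 (5) and TXNRD1 (2) all had 0 counts. On the opposite strand, other genes lie over 22.8% of the MANE Select transcript of NQO1 (ENSG00000261602, 9 counts in the whole table), 8.97% of that of SLC7A11 (SLC7A11-AS1, 127 counts), 7.77% of that of NFE2L2 and 6.66% of that of GCLC. No exon of the MANE Select transcript of any member lies in the span of another gene on its strand. The gene spans run from 13854 bases (HMOX1) to 436681 bases (BACH1), against transcripts of 1554 to 9645 bases, and whether reads from introns entered a member's count was not tested.

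Per kilobase of transcript, the cytosol levels of the 9 genes spread over a wide range. The length used leaves out introns, and the part of intron reads in this order was not tested. TXNRD1 was highest, with group means of 89.4 to 113 CPM per kb. KEAP1 followed with 29.3 to 38.6, BACH1 with 24.5 to 33.7, NFE2L2 with 18.1 to 26 and GCLC with 19.1 to 24.3 CPM per kb. The ranges of KEAP1 and BACH1, and those of NFE2L2 and GCLC, overlapped over the 6 groups. GCLM (9.43 to 16 CPM per kb) and SLC7A11 (8.1 to 16.8) lay below them with overlapping ranges, as did that of HMOX1 (4.47 to 9.42) in part, and NQO1 was lowest (2.91 to 3.73), below every group mean of the others.

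**Figure D1:**
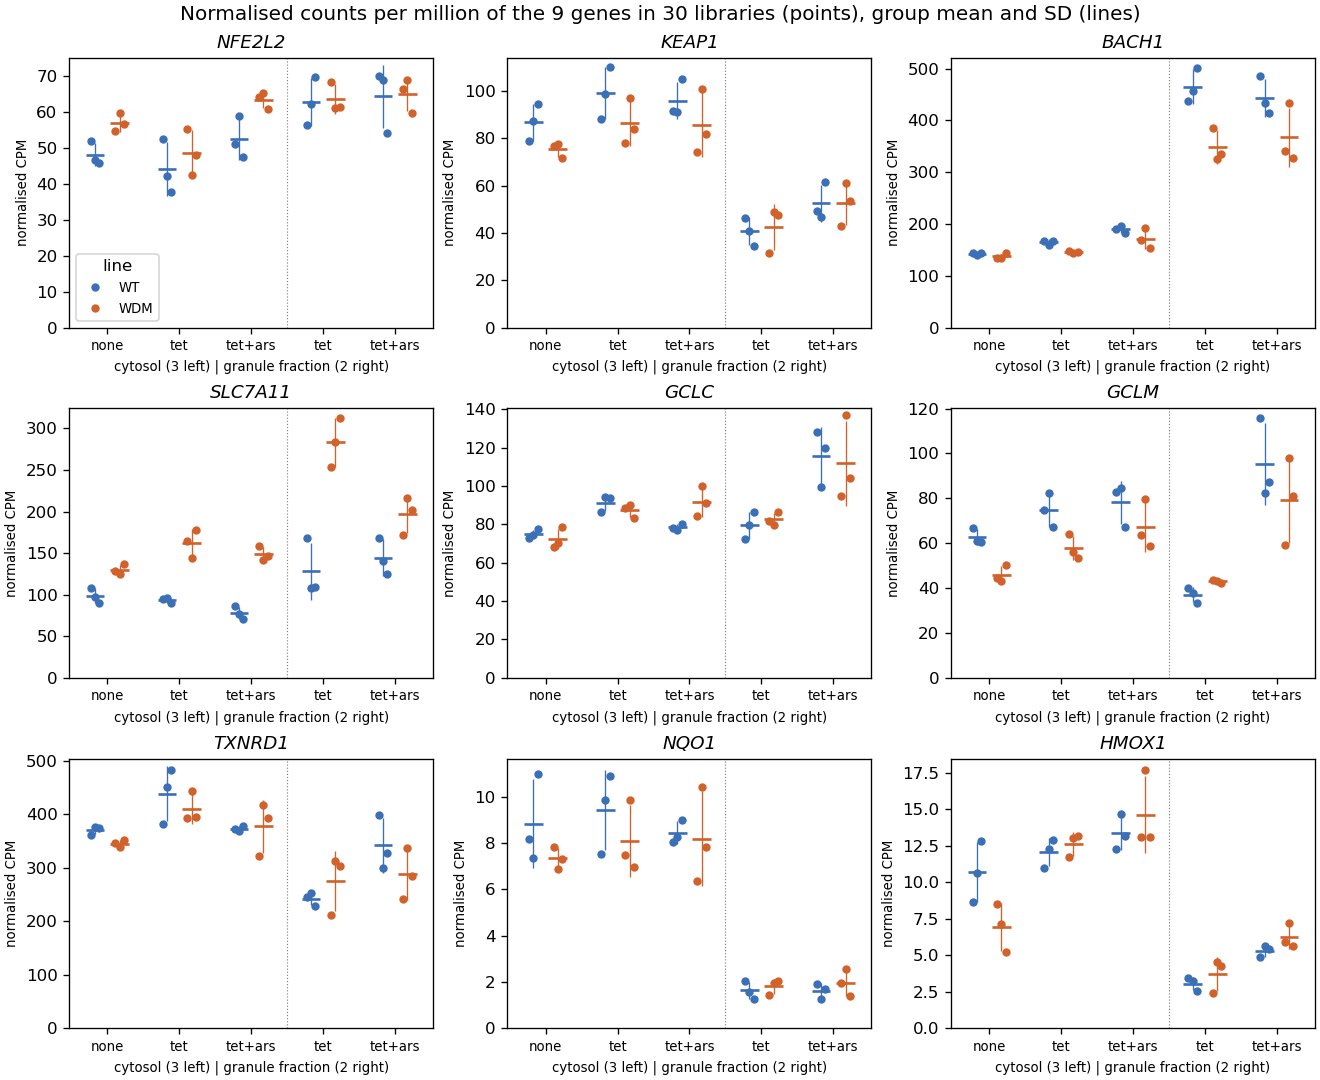
Normalised read counts in CPM (y axis, a panel per gene) in each of the 10 groups (x axis), with a point per library and lines for the mean and SD of 3 libraries in each group, coloured by line. SLC7A11 stands higher in WDM than in WT in every setting, BACH1 stands higher in the granule fraction than in cytosol, and HMOX1 and NQO1 stand lower there.

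The counts of members called are set out first, beside the share of all genes called. Tetracycline called 1 member in WT cytosol (all genes: 5.31%) and 2 in WDM (6.3%). Arsenite on top of tetracycline called 2 members in WT cytosol (29%) and 2 in WDM (28.8%), shares close to the background. The 2 treatments together against untreated cells called 2 members in WT (32.3%) and 4 in WDM (39.1%). WDM against WT called 3 members untreated (9.78%), 2 with tetracycline (12.6%) and 2 with arsenite (10.4%). In the granule fraction, arsenite called 5 members in WT (30.6% of all genes) and 3 in WDM (36.3%), all of them higher, where 16.5% and 18.7% of all genes were called higher. WDM against WT there called 1 member with tetracycline (5.55%) and 0 with arsenite (7.95%). Comparisons that share groups are not independent of each other. Groups that do not overlap are common in these data. Their share of all genes ran from 20.6% (WDM against WT, tetracycline granules) to 76.5% (granule against cytosol, WDM with tetracycline). It was 43.7% for WDM against WT in untreated cytosol, so a lack of overlap by itself says little about a member. With library size alone the share of called genes that were higher moved from 55.1% to 43.9% for tetracycline in WT, from 47.1% to 64.3% and from 48.7% to 58.9% for both treatments in WT and WDM, from 45.9% to 56% for WDM against WT with tetracycline in cytosol, and from 51.7% to 66% for WDM against WT with arsenite in granules.

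In cytosol, the 9 transcripts stood close to their levels without arsenite after 60 min of it. The median log2 fold change of the 9 genes was -0.06 in WT and 0.08 in WDM, against -0.02 and -0.00354 over all genes, and no fold change of a member exceeded 1.31-fold in either line. In the main fit, none of the 9 genes was called in the same direction in the pair of lines. With library size alone NFE2L2 (0.36, edgeR adjusted p = 0.039) and BACH1 (0.32, edgeR adjusted p = 0.0027) were called higher in WT. Both were called higher in WDM in the main fit. The scaling matters at this size: with library size alone, the share of called genes that were higher moved from 47.1% to 76.7% in WT and from 48.8% to 66.8% in WDM, and the median of all genes in WT from -0.02 to 0.11.

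NFE2L2 (ENSG00000116044, chromosome 2, 177227595 to 177392697, minus strand) encodes NRF2 itself. In WDM it stood at 55.4, 42.5 and 48.2 CPM with tetracycline and at 64.4, 65.4 and 60.8 CPM with arsenite. The 3 arsenite libraries lay above the 3 without it, a log2 fold change of 0.39 (SE 0.113, edgeR adjusted p = 0.0152). In WT it stood at 52.6, 42.3 and 37.8 CPM and then at 51.1, 59 and 47.5 CPM, groups that overlapped, with a log2 fold change of 0.23 (SE 0.114, edgeR adjusted p = 0.125). The difference between lines in this response was 0.15 (SE 0.16, edgeR adjusted p = 1). The call in WDM was lost without tetracycline replicate 2 (edgeR adjusted p = 0.0932), and the WT value was called without WT tetracycline replicate 1 (0.37, edgeR adjusted p = 0.00966) and with library size alone (0.36, edgeR adjusted p = 0.039). In untreated cells NFE2L2 was at 52, 46.7 and 46 CPM in WT and at 54.7, 59.8 and 56.7 CPM in WDM, groups that did not overlap but a difference that was not called (0.24, SE 0.114, edgeR adjusted p = 0.196), except with only those groups in the fit (edgeR adjusted p = 0.00438). The 60 tested genes within 5 Mb of it had a median of 0.23 in that comparison, with 10 higher and 0 lower. In cytosol with tetracycline their median was 0.07, with 2 higher and 4 lower. With arsenite it was 0.01, with 3 higher and 2 lower.

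KEAP1 (ENSG00000079999, chromosome 19, 10486125 to 10503558, minus strand), the adaptor that targets NRF2 for destruction, was not called in any cytosol comparison. Untreated libraries had 78.7, 87.1 and 94.3 CPM in WT and 76.6, 77.6 and 71.7 CPM in WDM, groups that did not overlap, at -0.20 (SE 0.113, edgeR adjusted p = 0.287), a value called with only those groups in the fit (edgeR adjusted p = 0.00811). With tetracycline it was at 88, 98.9 and 110 CPM in WT and at 78.2, 96.9 and 83.9 CPM in WDM. With arsenite it was at 91.5, 91.2 and 105 CPM in WT and at 74.3, 101 and 81.9 CPM in WDM. The groups overlapped in both lines, and the arsenite log2 fold changes were -0.06 (SE 0.111) and -0.01 (SE 0.112).

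BACH1 (ENSG00000156273, chromosome 21, 29194071 to 29630751, plus strand), the repressor, climbed over the 2 treatments. In WT it went from 143, 140 and 144 CPM untreated through 168, 159 and 168 CPM with tetracycline to 191, 196 and 182 CPM with arsenite. In WDM it went from 135, 135 and 143 CPM through 148, 143 and 145 CPM to 169, 192 and 154 CPM. Successive groups did not overlap within a line, though in WDM the highest untreated and the lowest tetracycline library both round to 143 CPM. From untreated to arsenite the log2 fold change was 0.39 in WT (SE 0.0747, edgeR adjusted p = 0.000719) and 0.31 in WDM (SE 0.0743, edgeR adjusted p = 0.00259), and both calls were kept with each of the 6 libraries left out. The single steps were smaller. The arsenite step was called in WDM (0.24, SE 0.0744, edgeR adjusted p = 0.0192), though not without WDM tetracycline replicate 2 or 3 or WDM arsenite replicate 2 (edgeR adjusted p up to 0.108), and in WT it was 0.19 (SE 0.0742, edgeR adjusted p = 0.0621), called with library size alone (0.32, edgeR adjusted p = 0.0027).

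SLC7A11 (ENSG00000151012, chromosome 4, 138164097 to 138242349, minus strand), the transport subunit of the cystine-glutamate exchanger that feeds glutathione synthesis, separated the lines more than any other member with tetracycline and with arsenite. Untreated cells had 108, 97.8 and 90.1 CPM in WT and 128, 125 and 137 CPM in WDM. With tetracycline the values were 94.2, 95.6 and 89.8 CPM in WT and 164, 144 and 178 CPM in WDM, and with arsenite 85.9, 77.3 and 71.2 CPM in WT and 158, 142 and 146 CPM in WDM. Every WDM library lay above every WT library of its setting. The log2 differences were 0.40 untreated (SE 0.0913, edgeR adjusted p = 0.00671), 0.80 with tetracycline (SE 0.0912, edgeR adjusted p = 2.83e-06) and 0.95 with arsenite (SE 0.0913, edgeR adjusted p = 2.68e-07), that is 1.32-, 1.74- and 1.93-fold. The last 2 were kept with each library left out, and the first was lost without WT untreated replicate 3 (edgeR adjusted p = 0.0638). The 27 tested genes within 5 Mb had medians of 0.12, 0.12 and 0.18 in these comparisons, with 4 higher and 0 lower in each.

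Within a line, the steps of SLC7A11 were smaller. In WT it fell from untreated to arsenite by 0.36 on the log2 scale (SE 0.0922, edgeR adjusted p = 0.006), in each of 6 fits with a library left out. Over arsenite alone WT fell by 0.27 (SE 0.0918, edgeR adjusted p = 0.0346), a call lost without WT tetracycline replicate 2 or 3 or WT arsenite replicate 2 or 3 (edgeR adjusted p up to 0.144) and with library size alone (-0.13, edgeR adjusted p = 0.33). In WDM the comparison of untreated with arsenite gave 0.19 (SE 0.0897, edgeR adjusted p = 0.0981). Tetracycline raised it in WDM by 0.31 (SE 0.0901, edgeR adjusted p = 0.0428), a call lost in 5 of 6 left-out fits (without any untreated WDM replicate and without WDM tetracycline replicate 1 or 3, edgeR adjusted p up to 0.191), and in WT the value was -0.09 (SE 0.0919). The test of that difference between lines gave 0.40 (SE 0.129, edgeR adjusted p = 0.846), and called 3 genes in the whole table (0.018%) and 0 members.

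GCLC (ENSG00000001084, chromosome 6, 53497341 to 53616970, minus strand), the catalytic subunit of glutamate-cysteine ligase, the enzyme that limits glutathione synthesis, moved by small steps. In WDM it was at 68.3, 70.5 and 78.5 CPM untreated, 88.6, 90 and 83.2 CPM with tetracycline and 84.3, 100 and 91.2 CPM with arsenite. The last group lay above the first, with a log2 fold change of 0.34 (SE 0.0784, edgeR adjusted p = 0.00221, kept in 6 of 6 left-out fits). In WT it was at 73.1, 74.5 and 77.4 CPM untreated, 86.2, 94.1 and 93.7 CPM with tetracycline and 77.9, 77.3 and 80.4 CPM with arsenite. WT thus rose with tetracycline (0.27, SE 0.0794, edgeR adjusted p = 0.0486) and fell with arsenite (-0.23, SE 0.0787, edgeR adjusted p = 0.0337), and each of these calls held in 1 of 6 left-out fits (edgeR adjusted p up to 0.167 and 0.127), for both the fit without WT tetracycline replicate 1. With library size alone the arsenite value was -0.09 (edgeR adjusted p = 0.306). The rise and the fall share the WT tetracycline group, so they are not independent. From untreated to arsenite the WT value was 0.04 (SE 0.0795, edgeR adjusted p = 0.714). With arsenite WDM was above WT by 0.25 (SE 0.0782, edgeR adjusted p = 0.0481), also kept in 1 of 6 left-out fits, the one without WDM arsenite replicate 1 (up to 0.167).

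GCLM (ENSG00000023909, chromosome 1, 93885199 to 93909456, minus strand), the modifier subunit of the same ligase, was lower in WDM cytosol untreated and with tetracycline. Untreated WT libraries had 66.8, 61 and 60.7 CPM and WDM libraries 44.4, 43.2 and 50.4 CPM, and with tetracycline WT had 75, 82.5 and 67.1 CPM and WDM 63.9, 56.3 and 53.5 CPM. The lines did not overlap in either setting, with log2 differences of -0.45 (SE 0.119, edgeR adjusted p = 0.0181) and -0.37 (SE 0.117, edgeR adjusted p = 0.0416). Each was kept in 3 of 6 left-out fits. The first was lost without WT replicate 1 or WDM replicate 1 or 2 (edgeR adjusted p up to 0.0935), and the second without WT replicate 2 or WDM replicate 2 or 3 (up to 0.188). The second was also lost with library size alone (-0.32, edgeR adjusted p = 0.0736) and with only the groups compared (-0.36, edgeR adjusted p = 0.133). With arsenite the lines overlapped, at 82.8, 84.6 and 67.2 CPM in WT and 63.5, 79.8 and 58.7 CPM in WDM. From untreated to arsenite GCLM rose in WDM by 0.55 (SE 0.117, edgeR adjusted p = 0.00123, kept in 6 of 6 left-out fits), and the WT value was 0.29 (SE 0.117, edgeR adjusted p = 0.0609), called without WT arsenite replicate 3 (0.39, edgeR adjusted p = 0.0262). This WT rise was also called with library size alone (edgeR adjusted p = 0.0154), no low-count filter (0.0101) and only the groups compared (0.0025). The same held with RLE factors (edgeR adjusted p = 0.0493) and with the replicate number as a block (0.0326).

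TXNRD1 (ENSG00000198431, chromosome 12, 104215779 to 104350307, plus strand), the cytosolic thioredoxin reductase, was not called in any cytosol comparison. Untreated libraries had 361, 376 and 374 CPM in WT and 346, 338 and 351 CPM in WDM. With tetracycline they had 382, 450 and 483 CPM in WT and 393, 444 and 394 CPM in WDM, and with arsenite 373, 368 and 377 CPM in WT and 322, 417 and 392 CPM in WDM. All tetracycline libraries lay above the untreated ones of their line, with log2 fold changes of 0.23 (SE 0.094, edgeR adjusted p = 0.152) and 0.24 (SE 0.094, edgeR adjusted p = 0.131). Without WT tetracycline replicate 1 the WT values were called, as a rise with tetracycline (0.33, edgeR adjusted p = 0.0255) and a fall with arsenite (-0.34, edgeR adjusted p = 0.00439). These share the WT tetracycline group, so they are not independent. From untreated to arsenite the WT value in the main fit was -0.01 (SE 0.094, edgeR adjusted p = 0.921).

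NQO1 (ENSG00000181019, chromosome 16, 69706996 to 69726668, minus strand), a quinone reductase often used as a readout of NRF2, was scarce in these cells. Its 18 cytosol libraries ran from 6.36 to 11 CPM, and the groups overlapped in all 9 comparisons of cytosol groups. With arsenite the values were 8.05, 8.28 and 9 CPM in WT and 6.36, 10.4 and 7.81 CPM in WDM. The arsenite log2 fold changes were -0.16 (SE 0.19) and 0.03 (SE 0.191), and neither was called.

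HMOX1 (ENSG00000100292, chromosome 22, 35380361 to 35394214, plus strand), haem oxygenase 1, started lower in WDM. Untreated libraries had 8.67, 10.6 and 12.8 CPM in WT and 8.51, 7.11 and 5.2 CPM in WDM. With tetracycline they had 11, 12.3 and 12.9 CPM in WT and 11.7, 13 and 13.2 CPM in WDM, and with arsenite 12.3, 14.7 and 13.2 CPM in WT and 13.1, 17.7 and 13.1 CPM in WDM. The lines stood apart untreated and overlapped in the other settings. The untreated difference was -0.61 (SE 0.177, edgeR adjusted p = 0.0314), lost without WT or WDM replicate 2 or 3 (edgeR adjusted p up to 0.197). HMOX1 rose with tetracycline in WDM by 0.86 (SE 0.172, edgeR adjusted p = 0.00535, 1.81-fold) and from untreated to arsenite by 1.06 (SE 0.167, edgeR adjusted p = 8.39e-05, 2.08-fold), both kept in 6 of 6 left-out fits. The same comparisons in WT gave 0.16 (SE 0.17) and 0.31 (SE 0.168), and the test of the line difference in the tetracycline response gave 0.69 (SE 0.242, edgeR adjusted p = 0.965). The arsenite step alone was 0.14 (SE 0.163) in WT and 0.20 (SE 0.16) in WDM, neither called.

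The tests of whether arsenite acted differently on the lines in cytosol called 0 of 16670 genes with edgeR (331 had an unadjusted p under 0.05) and 0 with DESeq2. All 9 members had a value above 0 there, from 0.05 to 0.31, each with an adjusted p of 1, against a median of 0.02 over all genes. In untreated cells the nuclear RNAs NEAT1, MALAT1, KCNQ1OT1 and MEG3 summed to 339 to 406 CPM in WT and 614 to 670 CPM in WDM, and the epithelial markers to 411 to 439 and 302 to 314 CPM. The nuclear RNAs overlapped between lines with tetracycline (220 to 517 CPM in WT, 341 to 667 CPM in WDM) and with arsenite (521 to 567 and 546 to 794 CPM). With arsenite the epithelial markers summed to 386 to 399 CPM in WT and 268 to 313 CPM in WDM. Their part in the line differences of SLC7A11, GCLM and HMOX1 was not tested.

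**Figure D2:**
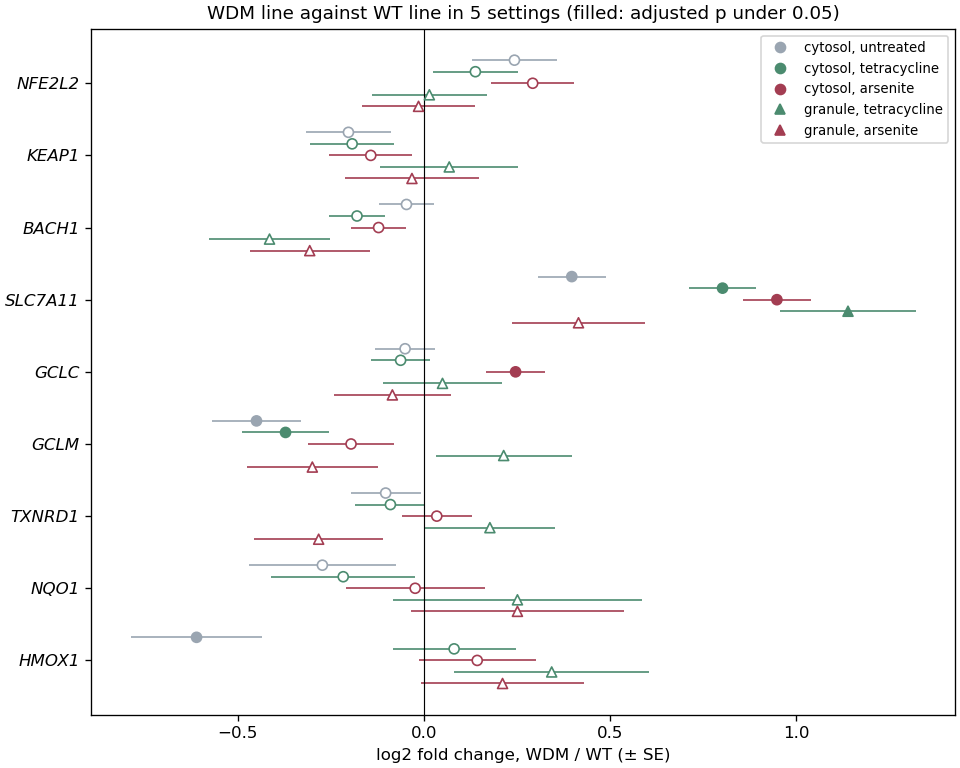
Log2 fold change of WDM over WT (x axis, bars are ± SE) for each of the 9 genes (y axis) in 5 settings, with circles for cytosol, triangles for the granule fraction and filled symbols for an adjusted p under 0.05. SLC7A11 lies to the right in all 5 settings, from 0.40 to 1.14, and GCLM to the left in untreated and tetracycline-treated cytosol, at -0.45 and -0.37.

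In the granule fraction arsenite called 5 of the 9 members in WT, against 30.6% of all genes. In WDM it called 3 of 9, near the 36.3% of all genes. Those called all rose (16.5% and 18.7% of all genes were called higher): GCLM, GCLC and HMOX1 in both lines, and TXNRD1 and KEAP1 in WT. The median of the 9 genes was 0.48 in WT and 0.17 in WDM, against -0.03 and 0.01 over all genes. A change in this fraction is a change in the share of its RNA, and fewer granules and less RNA per granule cannot be told apart, nor can fewer cells and less RNA per cell in the lysate.

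GCLM changed most. In WT granules it was at 40, 37.9 and 33.4 CPM with tetracycline and at 116, 82.3 and 87.5 CPM with arsenite, a log2 fold change of 1.47 (SE 0.184, edgeR adjusted p = 3.66e-06, 2.78-fold). In WDM granules it was at 43.7, 43.1 and 42.1 CPM and at 59.2, 97.8 and 80.9 CPM, a log2 fold change of 0.96 (SE 0.18, edgeR adjusted p = 0.000187, 1.95-fold). In both lines every arsenite library lay above every library without it, and both calls were kept in 6 of 6 left-out fits. GCLC, the other subunit, went from 72.4, 79.9 and 86.4 CPM to 128, 99.5 and 120 CPM in WT, a rise of 0.65 (SE 0.159, edgeR adjusted p = 0.00313, kept in 6 of 6). In WDM it went from 81.8, 79.8 and 86.4 CPM to 94.6, 137 and 104 CPM, a rise of 0.51 (SE 0.158, edgeR adjusted p = 0.0126) that was lost without WDM tetracycline replicate 2 or WDM arsenite replicate 2 (edgeR adjusted p up to 0.121).

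HMOX1, far scarcer than GCLM, also rose in both lines. WT granules had 3.41, 3.25 and 2.52 CPM and then 4.85, 5.62 and 5.42 CPM, and WDM granules 2.41, 4.5 and 4.26 CPM and then 5.93, 7.23 and 5.66 CPM. The groups did not overlap, with log2 fold changes of 0.94 (SE 0.249, edgeR adjusted p = 0.00549) and 0.81 (SE 0.235, edgeR adjusted p = 0.00828). The WT call was lost without WT tetracycline replicate 3 (edgeR adjusted p = 0.0744), and the WDM call was kept in 6 of 6 left-out fits.

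TXNRD1 in WT granules went from 245, 253 and 229 CPM to 399, 300 and 327 CPM, and in WDM granules from 211, 312 and 304 CPM to 242, 336 and 284 CPM. The WT groups stood apart, with a rise of 0.60 (SE 0.174, edgeR adjusted p = 0.0103), and the WDM groups overlapped, at 0.14 (SE 0.173, edgeR adjusted p = 0.553). The WT call was lost without WT tetracycline replicate 3 or WT arsenite replicate 1 (edgeR adjusted p up to 0.0722). KEAP1 in WT granules went from 46.5, 40.9 and 34.6 CPM to 49.4, 46.6 and 61.5 CPM, and in WDM granules from 31.4, 48.9 and 47.4 CPM to 42.8, 61 and 53.5 CPM. Its rise in WT was 0.48 (SE 0.185, edgeR adjusted p = 0.0494) and was kept in 2 of 6 left-out fits (not without WT tetracycline replicate 2 or 3 or WT arsenite replicate 1 or 3, edgeR adjusted p up to 0.276), and the WDM groups overlapped, at 0.38 (SE 0.183, edgeR adjusted p = 0.106), a value called without WDM arsenite replicate 1 (0.51, edgeR adjusted p = 0.0435).

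NFE2L2, BACH1 and NQO1 were not called with arsenite in granules of either line, with log2 fold changes from 0.04 to 0.17, and their groups overlapped. SLC7A11 went from 168, 108 and 109 CPM to 168, 141 and 125 CPM in WT granules and from 254, 283 and 312 CPM to 172, 216 and 202 CPM in WDM granules. The log2 fold changes were 0.28 (SE 0.18, edgeR adjusted p = 0.25) and -0.44 (SE 0.179, edgeR adjusted p = 0.0537), and the test of their difference gave -0.72 (SE 0.254, edgeR adjusted p = 0.271). WT tetracycline replicate 1, at 168 CPM, weighed on the WT value, which was 0.53 without it (edgeR adjusted p = 0.0304), and without WDM tetracycline replicate 1 the WDM value was -0.50 (edgeR adjusted p = 0.046). That test of the line difference called 0 of 18366 genes with edgeR (2329 had an unadjusted p under 0.05) and 0 with DESeq2.

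Mitochondrial transcripts (MT-CO1, MT-ND1, MT-CYB and MT-ND4 together) moved with arsenite in the granule fraction, from 1600 to 3040 CPM down to 433 to 1010 CPM in WT, and from 824 to 2620 CPM to 656 to 1130 CPM in WDM. The nuclear RNAs were at 2620 to 3590 CPM without and 2720 to 2780 CPM with arsenite in WT granules. Their part in the rise of GCLM, GCLC and HMOX1 was not tested.

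**Figure D3:**
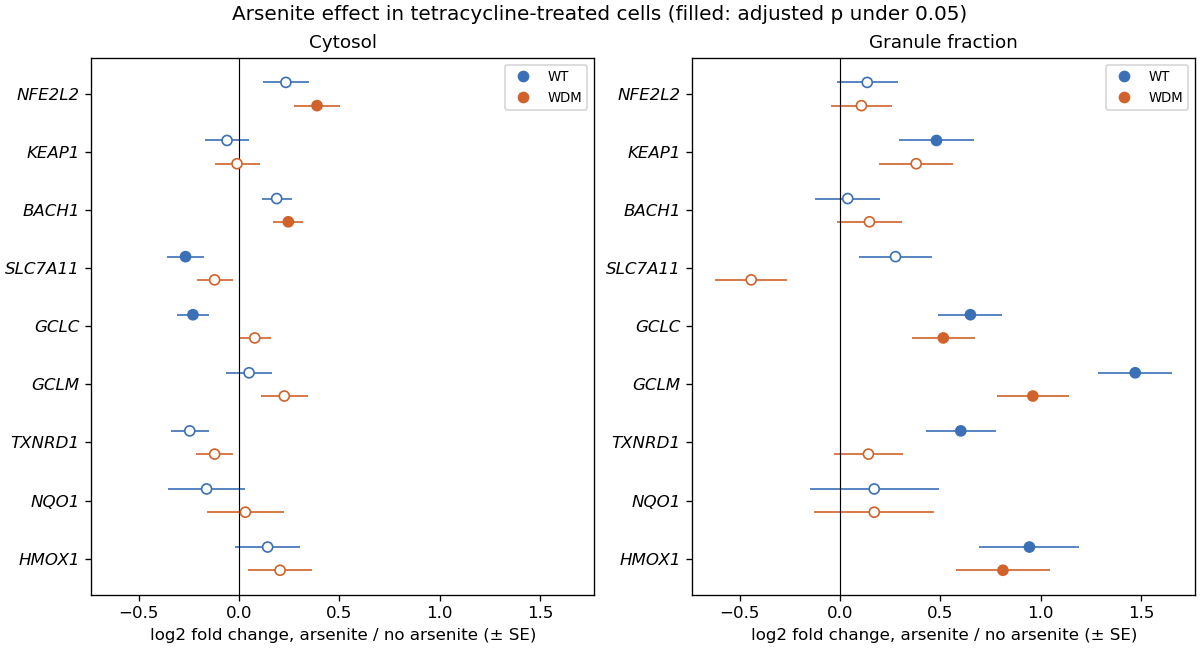
Log2 fold change with arsenite in tetracycline-treated cells (x axis, bars are ± SE) for each of the 9 genes (y axis), in cytosol and in the granule fraction, by line, with filled symbols for an adjusted p under 0.05. In cytosol the values lie between -0.27 and 0.39, and in the granule fraction GCLM reaches 1.47 in WT and 0.96 in WDM.

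Between lines in the granule fraction, SLC7A11 was the member called. BACH1 was lower in every WDM library than in every WT library with tetracycline, at -0.41 (SE 0.162), but was not called (edgeR adjusted p = 0.153). With tetracycline the WDM libraries of SLC7A11 (254, 283 and 312 CPM) lay above its WT libraries (168, 108 and 109 CPM), a log2 difference of 1.14 (SE 0.182, edgeR adjusted p = 0.000116, 2.2-fold) kept in 6 of 6 left-out fits. The 28 tested genes within 5 Mb of SLC7A11 had a median of 0.26, with 4 higher and 1 lower. With arsenite the WDM libraries of SLC7A11 (172, 216 and 202 CPM) again lay above the WT libraries (168, 141 and 125 CPM), but the difference of 0.42 (SE 0.179) was not called (edgeR adjusted p = 0.149), and edgeR and DESeq2 called 0 members in that comparison, where 4450 genes had an unadjusted p under 0.05.

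Each member's place between the fractions was then set against the cytosol of the same treatment. Here most genes of the table differ, 75.7% in WT and 71.1% in WDM with tetracycline, and 70.5% and 72% with arsenite, so the 8, 8, 6 and 6 members called are near the background, and the direction and size are what the members show. The nuclear RNAs summed to 220 to 794 CPM in cytosol and 2200 to 3590 CPM in the granule fraction, with MEG3 at no more than 0.0959 CPM anywhere, and their part in any of these enrichments was not tested.

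BACH1 was the member with the highest granule level against its cytosol. In WT it was at 437, 457 and 502 CPM in granules against 168, 159 and 168 CPM in cytosol with tetracycline, and at 485, 433 and 414 against 191, 196 and 182 CPM with arsenite. In WDM granules it was at 386, 326 and 335 CPM and at 340, 433 and 328 CPM. The granule libraries were above all cytosol libraries in each of these settings, with log2 fold changes of 1.48 (SE 0.134, edgeR adjusted p = 5.58e-11) and 1.22 (SE 0.133, edgeR adjusted p = 3.14e-09) in WT and 1.23 (SE 0.133, edgeR adjusted p = 2.95e-09) and 1.05 (SE 0.132, edgeR adjusted p = 5.14e-08) in WDM, without and with arsenite. SLC7A11 was also higher in granules in all 4 settings, by 0.44 and 0.88 in WT and 0.77 and 0.36 in WDM. The first of these was lost without WT tetracycline granule replicate 1 (0.20, edgeR adjusted p = 0.229), and the last was kept in 2 of 6 left-out fits (lost without WDM arsenite replicate 2 or 3 of either fraction, edgeR adjusted p up to 0.119). NFE2L2 was higher in granules with tetracycline, at 56.5, 62.3 and 69.9 CPM in WT and 68.6, 61.1 and 61.6 CPM in WDM, by 0.50 (SE 0.141, edgeR adjusted p = 0.00229) and 0.36 (SE 0.141, edgeR adjusted p = 0.0254). The WDM call was kept in 3 of 6 left-out fits (lost without WDM tetracycline cytosol replicate 2 or 3 or granule replicate 1, edgeR adjusted p up to 0.172). With arsenite the values of NFE2L2 were 0.29 (edgeR adjusted p = 0.0621) in WT, called without WT arsenite granule replicate 3 (0.40, edgeR adjusted p = 0.0171) and with DESeq2 (0.34, adjusted p = 0.0297), and -0.00346 (edgeR adjusted p = 0.984) in WDM.

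NQO1, HMOX1 and KEAP1 were lower in granules in all 4 settings, in every fit with a library left out. NQO1 was at 1.25 to 2.56 CPM in the 12 granule libraries, below each of its cytosol libraries, with log2 fold changes of -2.62 and -2.39 in WT and -2.16 and -2.11 in WDM (edgeR adjusted p of 6.29e-10, 8.32e-10, 1.81e-08 and 4.64e-09). HMOX1 gave -2.04 and -1.34 in WT and -1.78 and -1.27 in WDM, and KEAP1 -1.31 and -0.87 in WT and -1.05 and -0.75 in WDM. GCLM was lower in granules with tetracycline, by -1.03 in WT (edgeR adjusted p = 2.15e-06) and -0.46 in WDM (edgeR adjusted p = 0.0135, lost without WDM tetracycline cytosol replicate 1, edgeR adjusted p = 0.0615). With arsenite GCLM was not called, at 0.28 and 0.19, the latter called without WDM arsenite granule replicate 1 (0.38, edgeR adjusted p = 0.0382). TXNRD1 was lower with tetracycline, by -0.87 and -0.61, and with arsenite gave -0.13 (not called) in WT and -0.43 in WDM (edgeR adjusted p = 0.0155), where the fractions overlapped and the call was kept in 3 of 6 left-out fits (lost without WDM arsenite cytosol replicate 2 or 3 or granule replicate 1, edgeR adjusted p up to 0.114). GCLC was not called in 3 settings, though in WDM with arsenite it was without granule replicate 1 (0.36, edgeR adjusted p = 0.021), and was higher in granules of arsenite-treated WT cells, at 0.56 (SE 0.128, edgeR adjusted p = 0.000326).

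The change of this enrichment with arsenite was tested directly as the granule-to-cytosol difference with arsenite minus that without it. In WT it was 1.32 for GCLM (SE 0.229, edgeR adjusted p = 0.00013), 0.77 for GCLC (SE 0.182, edgeR adjusted p = 0.00217) and 0.74 for TXNRD1 (SE 0.222, edgeR adjusted p = 0.0124), each kept in 12 of 12 left-out fits. The 3 are of 9 members, with 31.4% of all genes called in either direction and 12% higher, and a median of -0.21 over all genes. HMOX1 missed the threshold at 0.70 (SE 0.274, edgeR adjusted p = 0.0509), while it passed with DESeq2 (adjusted p = 0.0277) and, in edgeR, with RLE factors (adjusted p = 0.0387), no low-count filter (0.0289) and only the groups compared (0.0417). It was also called without WT tetracycline replicate 1 of the cytosol (0.77, edgeR adjusted p = 0.0451) or of the granule fraction (0.77, edgeR adjusted p = 0.0431), and SLC7A11, at 0.44 (SE 0.217, edgeR adjusted p = 0.119), was called without the latter (0.69, edgeR adjusted p = 0.00957). In WDM, GCLM was the member called, at 0.65 (SE 0.228, edgeR adjusted p = 0.0357), with 24.2% of all genes called, 7.66% higher and a median of -0.17. That call was kept in 5 of 12 left-out fits, and lost without WDM cytosol replicate 1 of tetracycline, 1 or 3 of arsenite, or WDM granule replicates 2 or 3 of either treatment (edgeR adjusted p up to 0.132). The tests of a line difference in enrichment called 1 gene of the table with tetracycline and 1 with arsenite (0.00551% each) and 0 members.

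The members differ in features that the choice of genes did not use. Their MANE Select transcripts on GRCh38 run from 1554 bases for HMOX1 to 9645 bases for SLC7A11, of which the 3′ UTR takes 609 and 7859 bases. The GC content runs from 35.4% (SLC7A11) to 60.2% (KEAP1). Over the 9 genes, Spearman's rho of the granule log2 fold change with transcript length was 0.52 and 0.70 in WT and 0.65 and 0.78 in WDM, without and with arsenite, and with GC content -0.55, -0.61, -0.66 and -0.64 in the same order. With the length of the gene span, introns included, it was 0.88 and 0.75 in WT and 0.78 and 0.68 in WDM, against 0.51, 0.49, 0.53 and 0.44 over the 18141 genes tested. These are descriptions over 9 genes that share libraries, length and base composition, and carry no test.

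**Figure D4:**
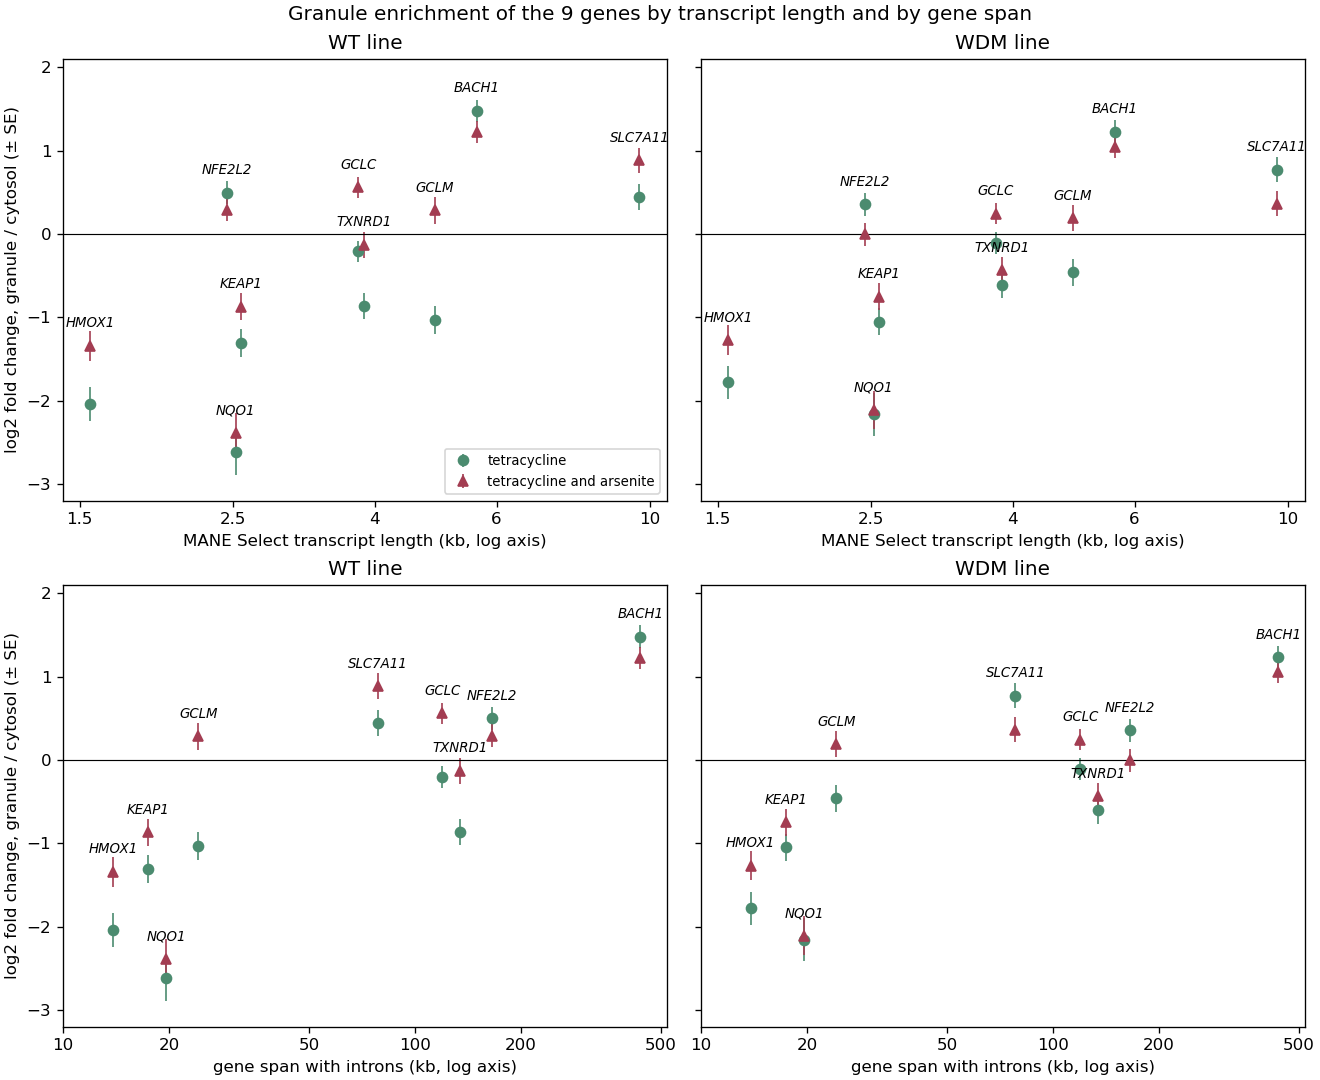
Log2 fold change of the granule fraction over cytosol (y axis, bars are ± SE) for the 9 genes against transcript length (upper panels) and gene span with introns (lower panels), in kb on log axes, by line, with circles for tetracycline and triangles for tetracycline and arsenite. HMOX1, KEAP1 and NQO1, with spans of 13854 to 19673 bases, lie below 0, and BACH1, with a span of 436681 bases, lies highest at 1.05 to 1.48.

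TIA1 is known to bind stretches rich in U, many of them in 3′ UTRs, so the window of 30 bases with the most U was read from the 3′ UTR of the members, and is printed for BACH1 and SLC7A11, higher in granules in all 4 settings, and for HMOX1, NQO1 and KEAP1, lower in all 4. They are written 5′ to 3′ as DNA on the strand of the gene, with runs of at least 5 T in capitals.
BACH1, chr21:29343222-29343251, plus strand: tttaataatttgacTTTTTTctaatatttt
SLC7A11, chr4:138169530-138169559, minus strand: tttatttaTTTTTgatttgaatttctcttt
HMOX1, chr22:35393997-35394026, plus strand: tgttgtgtcttgtgTTTTTgtcttaTTTTT
NQO1, chr16:69710875-69710904, minus strand: tttagTTTTTaagatttgtgTTTTTctttt
KEAP1, chr19:10486164-10486193, minus strand: ttattttgttgataagtaaccctgtaattt
The window held 19 T in BACH1, 21 in SLC7A11, 21 in HMOX1, 21 in NQO1 and 15 in KEAP1, the lowest number of the 9 genes and with no run in the window. The number of such runs in the whole 3′ UTR was 17 in BACH1 and 36 in SLC7A11, against 6 in HMOX1, 11 in NQO1 and 1 in KEAP1, over 3′ UTRs of 3315 and 7859 bases against 609, 1575 and 527 bases. Per kilobase of 3′ UTR it was 5.13 in BACH1 and 4.58 in SLC7A11, below HMOX1 (9.85) and NQO1 (6.98) and above KEAP1 (1.9). No binding was measured at these letters.

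The other genes of the pathway were followed in 5 lists of 65 genes: further regulators, glutathione genes, thioredoxin and peroxiredoxin genes, NADPH-supplying and detoxifying targets, and haem and iron targets. SRXN1, PRDX2 and ABCB6 had 0 counts, each with 99.8% or more of its span inside another gene on its strand, so that a 0 there does not show that the gene is silent, and GGT1, GSTM4, AKR1B10, AKR1C2 and AKR1C3 too few to test. With arsenite in cytosol 6 of the 56 tested genes were higher and 19 lower in WT, and 6 and 19 in WDM, with medians of -0.23 and -0.21, where 29% and 28.8% of all genes were called. Of all genes, 13.7% were called higher and 15.4% lower in WT, and 14.1% and 14.8% in WDM. In granules 9 of 55 were higher and 11 lower in WT, and 10 and 18 in WDM, against 30.6% and 36.3% of all genes called. By direction, 16.5% of all genes were higher and 14.1% lower in WT, and 18.7% and 17.7% in WDM. Against cytosol, 8 or 9 of 57 were higher in granules and 38 to 40 lower over the 4 settings, with medians from -1.35 to -1.20, where 70.5% to 75.7% of all genes were called. Those of all genes were split more evenly, with 35% to 39.5% higher and 35.3% to 36.2% lower. The medians of the members were -0.87 and 0.28 in WT and -0.46 and -0.00346 in WDM, without and with arsenite, and those of the regulators list -0.49, 0.22, -0.25 and 0.13 in the same order. TXN, the thioredoxin that TXNRD1 reduces, had 26.5 CPM in WT granules against 258 CPM in WT cytosol with tetracycline, a log2 fold change of -3.29 (SE 0.182, edgeR adjusted p = 1.8e-14), and -3.67, -2.78 and -3.69 in the other settings. PRDX6, a peroxiredoxin, gave -2.35 and AKR1B1, an aldose reductase, -2.03 in WT with tetracycline.

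Among regulators, MAFF, a small MAF that can pair with NRF2, had the largest rise with arsenite in cytosol. In cytosol it went from a mean of 2.97 to 11.3 CPM in WT and from 1.83 to 8.17 CPM in WDM, log2 fold changes of 1.92 (SE 0.209, edgeR adjusted p = 8.29e-06) and 2.11 (SE 0.228, edgeR adjusted p = 6.92e-06), and in granules it rose by 2.46 and 2.70. MAFG, another small MAF, rose in granules from 17.9 to 33.3 CPM in WT (1.02, edgeR adjusted p = 0.000158) and from 12.5 to 39.9 CPM in WDM (1.75, edgeR adjusted p = 1.76e-07). NFE2L3 and NFE2L1, relatives of NRF2, fell in cytosol by 0.76 and 0.60 in WT and by 0.66 and 0.58 in WDM, and the granule enrichment of NFE2L3 rose with arsenite, by 1.72 in WT (SE 0.264, edgeR adjusted p = 3.21e-05) and 0.93 in WDM (edgeR adjusted p = 0.00943). UGDH, which makes the sugar nucleotide for glucuronidation, rose in WT granules from 18.2 to 45.4 CPM (1.44, edgeR adjusted p = 2.55e-05), and GSS, the second enzyme of glutathione synthesis, fell in WDM granules by 1.11 (edgeR adjusted p = 2.15e-05).

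Between lines, 6 of the 56 other pathway genes were higher in WDM and 0 lower untreated, 4 and 0 with tetracycline, and 5 and 2 with arsenite, all in cytosol, against 9.78%, 12.6% and 10.4% of all genes called in either direction. Of all genes 4.19%, 5.8% and 4.98% were higher in WDM and 5.6%, 6.84% and 5.37% lower. The glutathione S-transferase GSTP1 had 108 CPM in untreated WDM cytosol and 0.0332 CPM in WT, the latter under the limit that a count of 0 allows. SELENOP, the selenium carrier, was at 37.3 CPM in untreated WDM cytosol and 15.9 CPM in WT (1.23, SE 0.118, edgeR adjusted p = 3.22e-07). MGST1, a membrane-bound glutathione transferase, was higher in WDM by 0.76 with arsenite in cytosol and by 1.14 and 1.23 in granules. CHAC1, which degrades glutathione, was at 8.32 CPM in WDM and 3.13 CPM in WT with tetracycline (1.44, SE 0.232, edgeR adjusted p = 0.000187).

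Over the 18 cytosol libraries the members did not follow a common course. The highest Pearson correlations of log2 CPM between members were 0.82 for KEAP1 with NQO1 and 0.82 for BACH1 with GCLM, and the lowest were -0.67 for NFE2L2 with TXNRD1 and -0.60 for NFE2L2 with KEAP1. Outside the members, among 11326 genes at 5 CPM or more, the gene most like each member was KIAA2026 for NFE2L2 (0.95), TARBP2 for KEAP1 (0.97), EPC2 for BACH1 (0.96), GPLD1 for SLC7A11 (0.96), PAFAH1B1 for GCLC (0.92), CCDC138 for GCLM (0.94), RPA2 for TXNRD1 (0.96), RRP9 for NQO1 (0.89) and LBHD1 for HMOX1 (0.91). These values describe 18 libraries of 6 groups that share lines and treatments.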

How the data were processed

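The authors deposited a single table of raw counts, with genes in rows, a column for every library and nothing pooled. The submitters' processing notes name Trimmomatic, STAR, Picard, featureCounts and GRCh38. Versions, the strand setting, the feature counted and the annotation release are not given in the sources used here. Libraries were stranded total-RNA libraries after rRNA removal, per the labels. Of the table's 60664 identifiers, 60463 are in GENCODE v44 and 56693 have identical coordinates there. The annotated span of NFE2L2 differs (177218667 to 177392756).

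Groups and replicate numbers came from the titles. Tests used R 4.3.3 and edgeR 4.0.16 on the deposited counts (filterByExpr with a minimum count of 10 and a minimum total of 15, TMM factors, a group-means model, robust quasi-likelihood F-test, Benjamini-Hochberg over all genes tested). The 18 cytosol libraries (16670 genes), the 12 granule libraries (18366 genes) and the 24 libraries of tetracycline-treated cells for comparisons between fractions (18141 genes) were fitted apart, in 24 comparisons, 17 between groups and 7 interactions. SE is the log2 fold change over the square root of F. CPM in the text use 1 set of TMM factors over 30 libraries, and fold changes the factors of their own fit. Levels per kilobase use the MANE Select transcript. The labels give no batch. No pair of libraries of a group agreed within counting noise (chi-square per degree of freedom 1.63 to 40.7), so none was treated as a repeat deposit of another. This does not show that they are separate cultures. The scripts were tested on simulated data with changed genes drawn from all those tested. Of genes changed by 0.5 on the log2 scale, 24.6% were recovered for arsenite in WT cytosol and 13.8% in WT granules. For granule against cytosol in WT with arsenite it was 14.1%. Far fewer genes were changed in the simulation than were called in these comparisons, and scarce genes were among them. These shares therefore need not hold for a given member. A gene that was not called may still have changed, and its SE, where given, shows how large a step remains possible.

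Each choice was also changed by itself: DESeq2 1.42.0 as the tool, RLE factors or plain library size for scaling, every gene kept, the fit limited to the groups compared, a block for the replicate number, and each library left out. Promoter windows and transcripts are from RefSeq and GENCODE v44. Figures were drawn with matplotlib 3.10.9 under Python 3.11.15. The members, lists and tests were chosen with earlier results of these data known. Every member is named, and from the 5 pathway lists at most the 3 genes with the smallest adjusted p per comparison, with their values in other comparisons where these were called. A tally of nested genes, the rows of TIA1 and genes with 0 counts and the relation to gene span were added after the counts were seen.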

Additional observations from a re-analysis of the deposited data

Results flagged for a closer look

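The effect of arsenite differed between the fractions, by an interaction term in edgeR's quasi-likelihood test with Benjamini-Hochberg adjustment, for 3 members in WT and 1 in WDM, where 31.4% and 24.2% of all genes were called. For GCLM in WT the granule-to-cytosol difference moved by 1.32 on the log2 scale (adjusted p = 0.00013), for GCLC by 0.77 (adjusted p = 0.00217) and for TXNRD1 by 0.74 (adjusted p = 0.0124). For GCLM in WDM it moved by 0.65 (adjusted p = 0.0357), a call kept in 5 of 12 fits with a library left out. Groups of 3 libraries are too small for a test of outlying libraries, so none was made.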

How the results depend on the processing

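No log2 fold change of a called member reversed its sign under any alternative. Counts of members called moved by more than 1.5 times as follows, from the main value to the alternative. With only the groups compared, tetracycline in WT went from 1 to 0 and in WDM from 2 to 1, arsenite in WT cytosol from 2 to 0 and in WDM from 2 to 0, both treatments in WT from 2 to 4, WDM against WT from 3 to 5 untreated (KEAP1 and NFE2L2 added), from 2 to 1 with tetracycline and from 2 to 1 with arsenite, and the change of enrichment in WDM from 1 to 0. With no low-count filter, tetracycline gave 0 in WT and 1 in WDM, arsenite in cytosol 0 in WT and 1 in WDM, WDM against WT with arsenite 1, and the change of enrichment in WT 6. With library size alone, tetracycline in WT gave 0 and WDM against WT with tetracycline 1. RLE factors and DESeq2 each gave 1 for WDM against WT with arsenite. The cause was not tested. Smaller moves are not listed in full: DESeq2 and RLE factors each added HMOX1 to the change of enrichment in WT (adjusted p = 0.0277 and 0.0387) and NFE2L2 to the enrichment in WT with arsenite (adjusted p = 0.0297 and 0.0291), and DESeq2 added GCLC to tetracycline in WDM (adjusted p = 0.0356).

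With each library left out, members called ranged from 0 to 2 (tetracycline in WT), 1 to 2 (tetracycline in WDM), 0 to 4 (arsenite in WT cytosol), 0 to 2 (arsenite in WDM cytosol), 2 to 3 (both treatments, WT), 4 to 4 (both treatments, WDM), 1 to 2 (WDM against WT in each cytosol setting), 2 to 6 (arsenite in WT granules), 2 to 4 (arsenite in WDM granules), 7 to 8 (enrichment with tetracycline, either line), 6 to 7 (enrichment with arsenite, WT), 4 to 7 (the same, WDM), 3 to 5 (change of enrichment, WT) and 0 to 1 (the same, WDM). It stayed at 1 for WDM against WT in tetracycline granules, and at 0 for the arsenite granules and the tests of line differences.

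The replicate numbers paired the libraries in some comparisons only. In 2 of 17 comparisons every pair's correlation was over 0.1 (range -0.227 to 0.567), and in 23 of 51 pairs the library was closest to its own number. Between granule and cytosol with arsenite, each replicate was closest to its own number in both lines. The correlations for replicates 1, 2 and 3 there were 0.351, 0.567 and 0.308 in WDM and 0.0601, 0.198 and 0.232 in WT. The main fits do not use this pairing. With the replicate number as a block, the number of members called kept within 1.5 times the main value in 24 of 24 comparisons. This block is a shift per replicate number that all groups of a fit share. It cannot model a pairing that differs between lines and treatments, so it does not show that calls between fractions survive such a pairing. GCLC with tetracycline in WDM (0.26, adjusted p = 0.0324), TXNRD1 with arsenite in WT cytosol (-0.24, adjusted p = 0.0283), GCLM with both treatments in WT (0.29, adjusted p = 0.0326) and HMOX1 for the change of enrichment in WT (0.72, adjusted p = 0.0257) came under the threshold, and KEAP1 with arsenite in WT granules left it (0.47, adjusted p = 0.063).

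Counts over all genes moved by more than 1.5 times with only the groups compared for tetracycline in WT (886 to 220), arsenite in WT cytosol (4838 to 2737) and in WDM cytosol (4804 to 1921), and WDM against WT untreated (1631 to 5463) and with tetracycline (2108 to 852). The line difference of the tetracycline effect went from 3 genes to 11 with DESeq2, 14 with no low-count filter and 6 with the block. That of the arsenite effect in granules went from 0 to 44 with no filter, and that of enrichment with tetracycline from 1 to 2 with DESeq2, library size alone, no filter and the block. With libraries left out, tetracycline in WT ranged from 189 genes (without WT untreated replicate 1) to 1766 (without WT tetracycline replicate 1). The lowest counts were 422 for tetracycline in WDM (from 1050, without WDM untreated replicate 2), 2440 for arsenite in WT cytosol (without WT tetracycline replicate 3), 2490 in WDM cytosol (without WDM tetracycline replicate 2) and 3157 in WT granules (from 5620, without WT tetracycline replicate 3). For WDM against WT they were 929 untreated (without WT replicate 3), 1209 with tetracycline (without WDM replicate 3), 1094 with arsenite (from 1726, without WT replicate 3), and in granules 570 with tetracycline (from 1019, without WDM replicate 3) and 569 with arsenite (from 1460, without WT replicate 1). WDM against WT with tetracycline in cytosol reached 4573 without WT replicate 1. Depth limits NQO1 most, with 12 to 63 counts in a granule library.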
